A study of Mus musculus with 2 samples.

Results

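The 7 genes followed here act in amino acid transport and glutamine metabolism and were given as a list of symbols. They were measured across the cells of mouse pancreatic islets and are the enzymes Glul and Glud1 and the carriers Slc38a5, Slc1a5, Slc38a4, Slc7a2 and Slc7a8. All 7 of 7 were found among the 22383 features of the single-cell count tables, each under 1 identifier. The list was given by symbol and was chosen with earlier results of these data known. The study behind the data had named Glul among genes with high expression in a β-cell cluster nearly confined to its knockout group. The values of the 7 genes did not enter the classing of cells.

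Glutamine synthetase, the product of Glul, joins ammonia to glutamate, and glutamate dehydrogenase, the product of Glud1, removes it again in mitochondria and feeds the carbon into the citric acid cycle. In β-cells glutamate dehydrogenase links amino acids to insulin release, and in α-cells amino acids, arginine and glutamine above all, drive glucagon release and growth. Amino acids reach both cells through membrane carriers. Slc38a5 and Slc1a5 move glutamine and other neutral amino acids, Slc38a4 takes up small neutral amino acids with sodium, Slc7a2 takes up arginine, lysine and ornithine, and Slc7a8 exchanges neutral amino acids across the membrane.

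Islets came from mice aged 5 weeks on a C57BL/6 N background. The control group, labelled wildtype, consisted of littermates without Cre, and the TBL/RβKO group carried Cre inserted at Ins1 together with floxed Tbl1x and Tbl1xr1, so that both cofactors are meant to be lost where Ins1 is active. Each group gave 1 library made from 150 islets pooled from 4 mice, after overnight culture in serum-containing medium, with a droplet kit that reads the 3′ end of transcripts and tags single molecules (UMIs). With 1 library a group, the genotype, the Cre insertion, the culture and the library cannot be told apart. No test between groups was possible, and every interval below is a 95% interval that covers counting error only.

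In all, 241434108 UMIs in 7067 barcodes were deposited for the control and 185062206 UMIs in 5833 barcodes for the other group. Barcodes with more than 2500 detected genes and less than 10% mitochondrial UMIs were kept (4747 and 4179). The libraries shared 14 barcodes, 12 of them among those kept in both. Cre had 0 UMIs in the control and 3247 UMIs in 329 barcodes of the other library. UMIs of the targeted genes went against the label: in barcodes led by insulin, Tbl1x stood at 96.9 and 351 per 1000000 UMIs (CPM) and Tbl1xr1 at 20.0 and 129 CPM. Reads from the 3′ end need not cover the deleted exons, which the sources used here do not give, so these counts do not check the deletion. The second library is therefore named by its label, as the TBL/RβKO-labelled library.

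Each barcode was classed by the hormone with the most UMIs, at 100 or more per 10000. The insulin class held 2877 control barcodes and 1338 of the TBL/RβKO-labelled library, the Gcg class 1284 and 1546, the Sst class 223 and 374, and the Ppy class 259 and 495, and 104 and 426 barcodes had no hormone at that level. The classes carried the markers of their names, with all 8 β-cell markers at 10 CPM or more in the insulin class and all 6 α-cell markers in the Gcg class of both libraries. They were not pure. A second hormone passed the same limit in 16.3% and 60.8% of insulin-class barcodes, in 59.6% and 20.3% of the Gcg class, in 83.4% and 66.8% of the Sst class, and in 56.4% and 57.6% of the Ppy class, and no doublets were removed. At least 3 of 5 ductal markers were detected in 4.10% and 21.2% of insulin-class barcodes. There the ductal list summed to 183 and 650 CPM and the stromal list to 23.6 and 80.4 CPM. The macrophage list summed to 72.9 and 24.6 CPM and the B-cell list to 12.1 and 18.6 CPM. The acinar, endothelial, glial and T-cell lists summed to 15.1 CPM or less. In this class 49.5% and 76.7% of barcodes had 6000 detected genes or more. The part of these features in the differences below was not tested, and values for barcodes with 1 hormone are given for Glul in each class and for Glud1, Slc38a4, Slc7a2 and Slc7a8 in the insulin class.

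Levels were compared as CPM of UMIs summed over a class. Insulin UMIs made up 49.6% of the insulin class in the control and 27.9% in the TBL/RβKO-labelled library, and the median gene stood 0.31 higher there on the log2 scale. Ratios are therefore given plain and relative to the median gene of the class, and some levels are given as CPM after hormone and mitochondrial UMIs were left out (hormone-free CPM). A gene was called higher or lower when it reached 10 CPM in at least 1 library and its relative log2 ratio was 1 or more in size.

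In the insulin class, Glul was the gene of the 7 with the highest ratio. It stood at 82.9 CPM (81.6 to 84.3) in the control and at 507 CPM (503 to 511) in the TBL/RβKO-labelled library, 6.11-fold higher. Glud1 followed with 63.7 CPM (62.5 to 64.8) and 132 CPM (130 to 134). The carriers Slc38a4, Slc7a2 and Slc7a8 were lower, Slc38a4 with 58.3 CPM (57.2 to 59.4) and 32.5 CPM (31.4 to 33.6), Slc7a2 with 114 CPM (112 to 115) and 74.8 CPM (73.2 to 76.6), and Slc7a8 with 67.9 CPM (66.7 to 69.1) and 44.3 CPM (43.0 to 45.6). The enzymes and these carriers thus stood apart in direction in the summed UMIs of this class.

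Relative to the median gene, the log2 ratio was 2.30 (2.27 to 2.32) for Glul, 0.74 (0.70 to 0.77) for Glud1, -1.16 (-1.22 to -1.10) for Slc38a4, -0.92 (-0.96 to -0.88) for Slc7a2 and -0.93 (-0.98 to -0.88) for Slc7a8. Of the 5 genes that reached 10 CPM, Glul was called higher, as were 4.36% of 7918 genes, and Slc38a4 was called lower, as were 2.26%. Slc38a5 and Slc1a5 stayed below 10 CPM and were not called. Slc7a2 and Slc7a8 lay just short of the limit, and which of the carriers passed it changed with the barcodes used: among insulin-class barcodes with 1 hormone, Slc7a2 was at -1.33, Slc38a4 at -0.92 and Slc7a8 at -0.73.

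**Figure D1:**
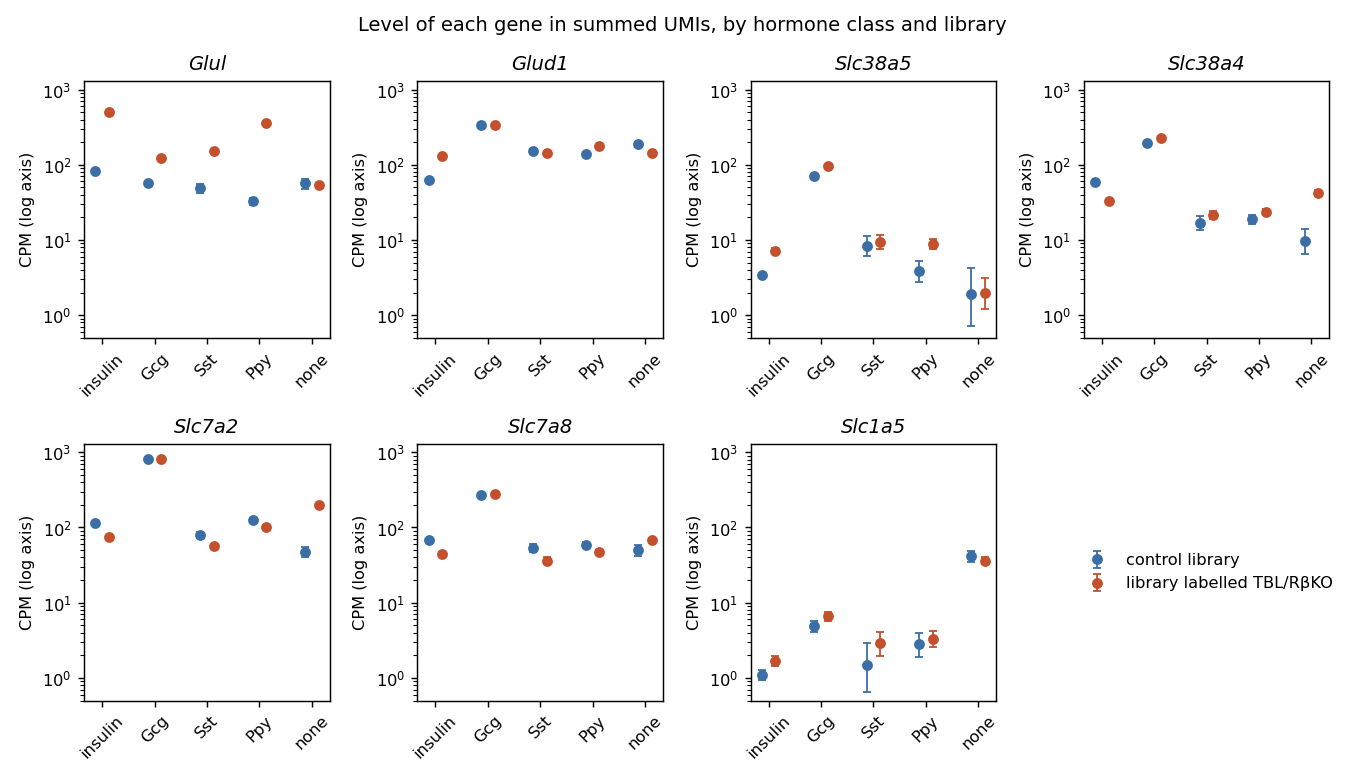
Level of each gene in CPM (log axis) in the summed UMIs of each hormone class, for the control library (blue) and the TBL/RβKO-labelled library (red), with 95% counting intervals. Glul is higher in the red library in all 4 hormone classes and level in barcodes without a hormone (56.4 and 53.3 CPM), while Slc38a5, Slc38a4, Slc7a2, Slc7a8 and Glud1 are highest in the Gcg class of both libraries.

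**Figure D2:**
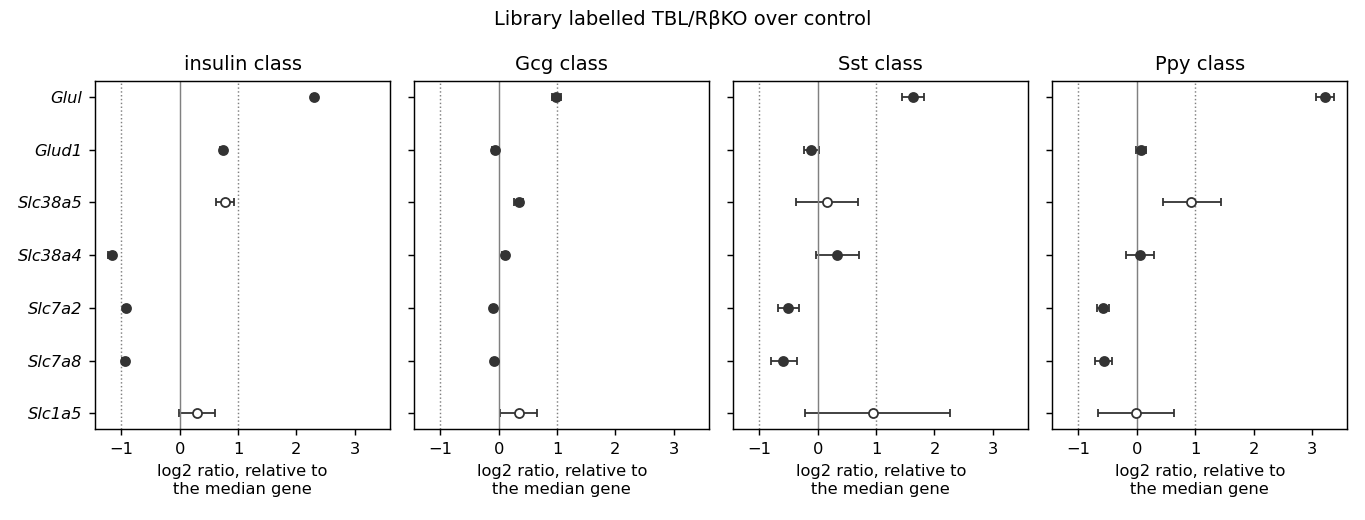
Log2 ratio of the TBL/RβKO-labelled library over the control, relative to the median gene of each class, with 95% counting intervals. Filled points reached 10 CPM in at least 1 library, open points did not, and dotted lines mark the limit of 1 for a call. Glul lies to the right in each panel, at 2.30, 0.99, 1.63 and 3.22, and Slc38a4 passes the limit on the left in the insulin class alone.

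Glul (ENSMUSG00000026473) lies at chr1:153775690-153785469 on the plus strand (GRCm39, GENCODE M39), with 7 exons, and overlaps Teddm2 on the other strand and Mir8114. Its start region is printed because Glul differed most between the libraries and because TBL1X and TBL1XR1 are known as cofactors of nuclear receptors and of β-catenin with TCF/LEF factors. The window runs from 250 bases before the start to 50 after it (chr1:153899679-153899978, plus strand, GRCm38.p6, from RefSeq). Capitals mark the nuclear receptor core motif AGGTCA.

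Glul: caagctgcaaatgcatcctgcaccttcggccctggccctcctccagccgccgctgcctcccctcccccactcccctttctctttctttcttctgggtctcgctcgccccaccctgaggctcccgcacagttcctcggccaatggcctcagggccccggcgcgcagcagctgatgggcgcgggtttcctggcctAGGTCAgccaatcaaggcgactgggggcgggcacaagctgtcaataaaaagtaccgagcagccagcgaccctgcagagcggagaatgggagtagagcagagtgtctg

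The motif begins at base 194 of the 300. On either strand, AGGTCA was present in 16.3% of the 32851 windows of this length, the TCF/LEF letters ATCAAAG in 3.73% and the C/EBP-ATF letters TGATGNAA in 3.97%. Of the 5 genes with a window in the table (Glul, Glud1, Slc38a5, Slc38a4 and Slc7a8), only Glul held one of these letter runs. With so few windows, a single match to letters found in 16.3% of all windows does not set Glul apart. A match describes the letters and not a bound site.

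In single barcodes of the insulin class, Glul UMIs were common in both libraries and differed in amount. At least 1 Glul UMI was found in 91.5% of control barcodes (90.4 to 92.5) and in 98.1% (97.2 to 98.7) of those of the TBL/RβKO-labelled library, with median depths of 53346 and 67897 UMIs. Thinned to 5000 UMIs a barcode, which left out 0 barcodes, the shares were 35.2% (33.5 to 37.0) and 78.3% (75.9 to 80.4), against 23.1% and 20.9% of barcodes without a hormone. Thinned to 5000 hormone-free UMIs, which left out 6 and 0 insulin-class barcodes, the gap was narrower. The shares were then 55.4% (53.5 to 57.2) and 86.2% (84.3 to 88.0), against 26.9% and 19.1% of barcodes without a hormone. Per 10000 hormone-free UMIs, the control had a 10th percentile of 0.349, a median of 1.56 and a 90th percentile of 3.50 Glul UMIs, and the TBL/RβKO-labelled library 1.58, 5.99 and 16.3. The ranges overlapped: 72.6% of the latter's barcodes (70.1 to 74.9) lay above the control's 90th percentile, and 9.64% (8.11 to 11.3) lay below its median.

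**Figure D3:**
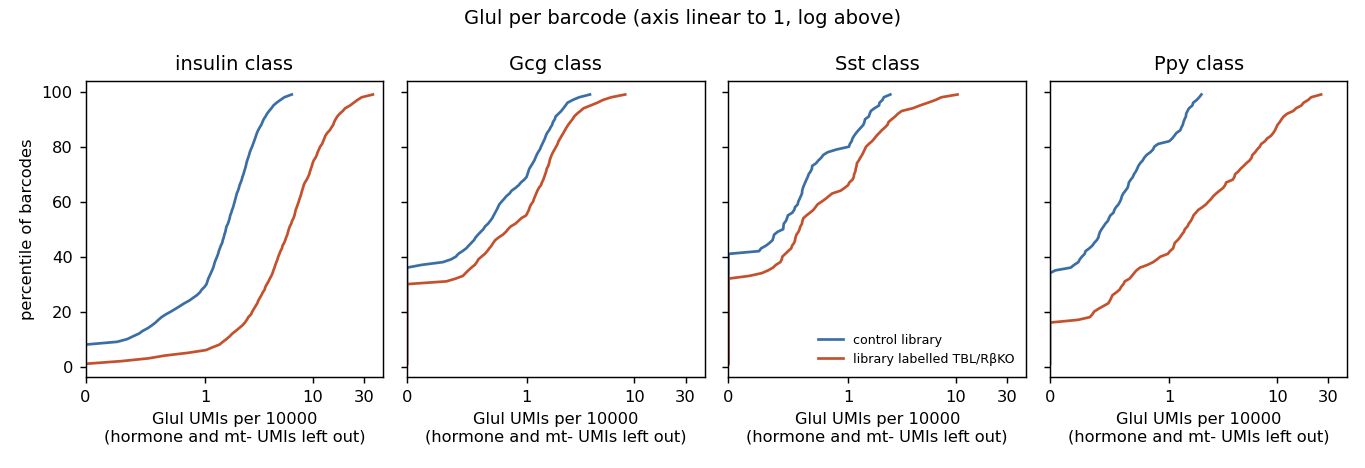
Percentiles of Glul UMIs per 10000 hormone-free UMIs over the barcodes of each hormone class (x axis linear to 1 and logarithmic above), for the control library (blue) and the TBL/RβKO-labelled library (red). In the insulin class the whole curve is shifted, from a median of 1.56 to 5.99. In the Ppy class the upper part is shifted most (90th percentile of 1.38 against 11.0), and in the Gcg and Sst classes the curves lie closer together below the top of their range.

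Glul was higher in the TBL/RβKO-labelled library at each insulin level of the barcode, and the gap was narrowest where insulin was highest. With 100 to under 1000 insulin UMIs per 10000, Glul stood at 71.9 hormone-free CPM (60.4 to 85.0) in 163 control barcodes and at 798 (782 to 814) in 243 of the TBL/RβKO-labelled library. With 1000 to under 3000 it stood at 106 (98.2 to 113) and 807 (798 to 817), and with 3000 or more at 188 (185 to 191) and 731 (719 to 742). Thus Glul was higher with more insulin in the control and nearly level over the 3 bins in the other library.

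Barcodes with insulin as their only hormone had 195 hormone-free CPM of Glul (192 to 198) in the control and 818 (806 to 831) in the TBL/RβKO-labelled library. Those with insulin and Ppy had 138 (121 to 157) and 880 (867 to 892). Below 6000 detected genes the values were 189 (184 to 195) and 824 (802 to 846). In the TBL/RβKO-labelled library, the 274 insulin-class barcodes with a Cre UMI had 808 (794 to 823) and the 1064 without one had 772 (764 to 780). Their median depths were 81403 and 64693 UMIs, and barcodes without a Cre UMI need not lack Cre. Both sets stood far above the 178 (175 to 181) of the whole control class.

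Outside the insulin class, Glul was higher in the TBL/RβKO-labelled library in the Ppy class above all. It had 32.5 CPM (29.2 to 36.1) and 364 CPM (356 to 372) there, an 11.2-fold difference and a relative log2 ratio of 3.22 (3.07 to 3.38). Glul was the 1 of 5 genes called higher in this class, where 4.63% of 8644 genes were called higher and 1.18% lower. Barcodes with Ppy as their only hormone had 47.8 hormone-free CPM (40.1 to 56.6) and 335 (318 to 352), and those of Ppy with insulin 55.0 (40.0 to 73.9) and 785 (758 to 813). The difference was thus present without a second hormone and wider with insulin beside Ppy. In the Ppy class the stromal list summed to 6.13 and 130 CPM, the ductal list to 263 and 500 CPM and the macrophage list to 58.0 and 23.2 CPM, and their part in the Glul difference was not tested. Of the Ppy-class barcodes of the TBL/RβKO-labelled library, 50.5% (46.0 to 55.0) lay above the control's 90th percentile.

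In the Sst class Glul had 48.5 CPM (42.8 to 54.8) and 152 CPM (144 to 159), a relative log2 ratio of 1.63 (1.44 to 1.82). It was the 1 of 5 genes called higher there, as were 0.898% of 9241 genes, while 0.541% were called lower. With Sst as the only hormone it stood at 39.2 (25.8 to 57.1) and 116 (103 to 129) hormone-free CPM. Below 6000 detected genes the relative log2 ratio was 0.80, under the limit for a call.

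In the Gcg class Glul had 57.5 CPM (54.8 to 60.3) and 123 CPM (119 to 127), a relative log2 ratio of 0.99 (0.91 to 1.07). None of 6 genes was called in this class, where 0.712% of 8986 genes were called higher and 0.156% lower. The Glul difference lay mostly in barcodes with more genes or more hormones. With Gcg as the only hormone the levels were 78.9 (73.4 to 84.6) and 104 (99.8 to 109) hormone-free CPM, against 79.0 (72.2 to 86.2) and 291 (255 to 331) with insulin beside Gcg. With 6000 genes or more they were 69.6 (63.6 to 76.1) and 249 (239 to 260).

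Barcodes without a hormone showed no such difference, with 56.4 CPM (48.3 to 65.4) and 53.3 CPM (48.8 to 58.0). Among them, those with the most macrophage markers had 113 CPM (91.9 to 137) and 100 CPM (81.5 to 122), and those with the most stromal markers 28.0 CPM (16.0 to 45.5) and 27.1 CPM (22.1 to 32.9). Endothelial-marker barcodes had 29.5 CPM (21.3 to 39.9) in the control and 59.8 CPM (42.7 to 81.4) in the other library. In order of its level, Glul ran insulin, Gcg, no hormone, Sst and Ppy in the control and insulin, Ppy, Sst, Gcg and no hormone in the TBL/RβKO-labelled library. The neighbours Gcg, no hormone and Sst overlapped in their control intervals in that order, and each step of the other order exceeded its intervals.

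Glud1 (ENSMUSG00000021794; chr14:34032583-34067642, plus strand, 13 exons, overlapping Shld2 on the other strand and Gm3219) had its highest level in the Gcg class. It stood there at 334 CPM (327 to 341) and 343 CPM (336 to 349), 5.24-fold (5.10 to 5.39) above the insulin class in the control and 2.59-fold (2.53 to 2.66) in the TBL/RβKO-labelled library. The Gcg class was level between the libraries, and in the insulin class Glud1 was 2.07-fold higher than in the control. Without hormone UMIs the insulin class had 137 (134 to 139) and 203 (200 to 207) hormone-free CPM, 1.48-fold, and barcodes of insulin alone had 125 and 209.

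Only in the bin with the most insulin was Glud1 higher in the TBL/RβKO-labelled library with level intervals that did not overlap. With 3000 or more insulin UMIs per 10000 it stood at 129 (126 to 131) and 202 (196 to 208) hormone-free CPM, with 1000 to under 3000 at 184 (174 to 194) and 197 (192 to 202), and with 100 to under 1000 at 287 (263 to 312) and 221 (213 to 230), the reverse order. The 163 control barcodes of that lowest bin were shallow, with a median of 9271 UMIs. In the Sst class Glud1 had 154 CPM (143 to 164) and 144 CPM (137 to 152), and in the Ppy class it had a relative log2 ratio of 0.07 (-0.02 to 0.16).

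**Figure D4:**
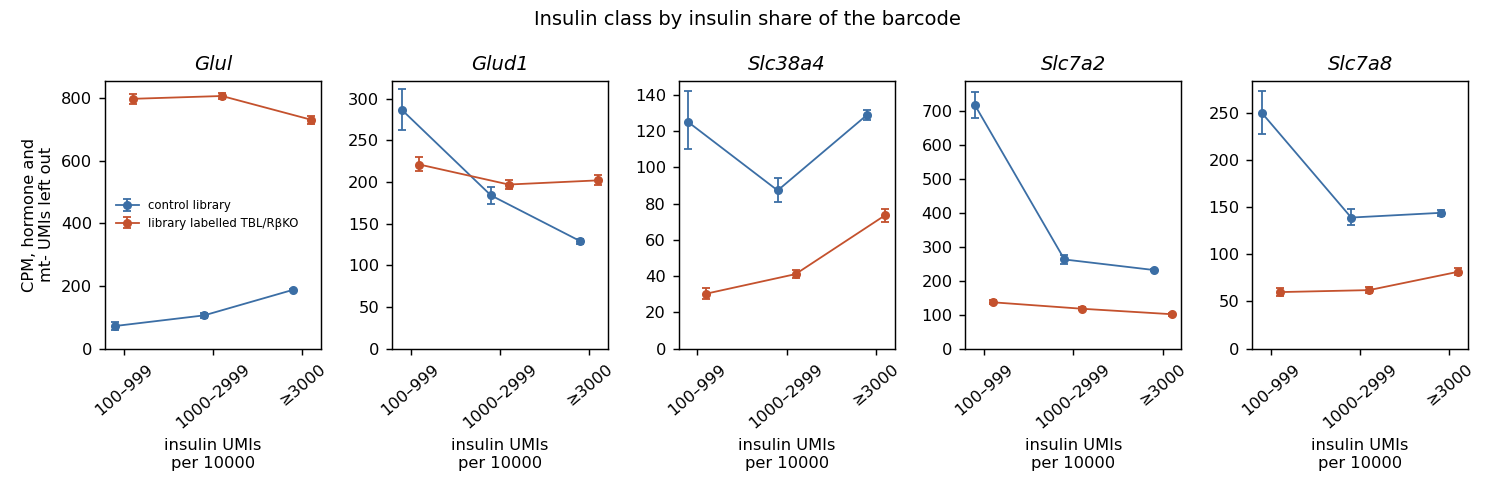
Hormone-free CPM in the insulin class by the barcode's insulin UMIs per 10000, for the control library (blue) and the TBL/RβKO-labelled library (red), with 95% counting intervals. Glul lies between 731 and 807 in the 3 bins of the red library and at 188 or less in the control. Slc38a4, Slc7a2 and Slc7a8 are lower in each bin of the red library, and Glud1 crosses.

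Slc38a5 (ENSMUSG00000031170; chrX:8123870-8146425, plus strand, 15 exons) was a Gcg-class transcript. It stood at 70.1 CPM (67.0 to 73.2) in the Gcg class of the control and at 95.1 CPM (91.8 to 98.5) in that of the TBL/RβKO-labelled library, a relative log2 ratio of 0.34 (0.26 to 0.42). With Gcg as the only hormone it stood at 98.6 (92.5 to 105) and 131 (126 to 137) hormone-free CPM. Thinned to 5000 UMIs, 24.7% (22.4 to 27.1) and 34.0% (31.7 to 36.4) of Gcg-class barcodes had a Slc38a5 UMI. The difference was below the limit for a call but beyond counting error on each of these scales.

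In the insulin class Slc38a5 had 3.38 CPM (3.12 to 3.66) and 7.18 CPM (6.67 to 7.72), 20.7-fold (18.9 to 22.7) below the Gcg class in the control and 13.2-fold (12.2 to 14.4) below it in the other library. Barcodes of insulin alone had 3.28 (2.85 to 3.75) and 5.51 (4.54 to 6.63) hormone-free CPM, and those of insulin with Gcg 33.1 (28.7 to 38.0) and 50.7 (43.0 to 59.3). By a bound, free RNA could account for at most 64.5% of the insulin-class level in the control and 73.6% in the TBL/RβKO-labelled library. The bound assumes that free RNA has the makeup of all kept UMIs of the library. It counts as free RNA all of the foreign hormone whose class share is lowest relative to its share of those UMIs. At least 1 Slc38a5 UMI was seen in 3.85% and 3.52% of barcodes without a hormone (median depths of 25560 and 17474 UMIs), against 11.3% and 23.5% of the insulin class. Thinned to 5000 UMIs these shares were 1.92% and 1.88%, against 1.01% and 3.06%. Thinned to 5000 hormone-free UMIs they were 0% (0 to 3.48) and 1.18% (0.383 to 2.72), against 2.72% (2.15 to 3.38) and 5.16% (4.03 to 6.48). Barcodes without a hormone had 1.98 (0.728 to 4.32) and 2.07 (1.26 to 3.20) hormone-free CPM, against 7.27 (6.71 to 7.87) and 11.0 (10.3 to 11.9) in the insulin class. The insulin class thus lay above them in CPM, although the control's barcodes of insulin alone overlapped them.

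Slc1a5 (ENSMUSG00000001918; chr7:16515265-16532731, plus strand, 9 exons) was scarce in endocrine barcodes. It reached 1.09 CPM (0.946 to 1.26) and 1.66 CPM (1.42 to 1.94) in the insulin class and 4.83 CPM (4.06 to 5.70) and 6.56 CPM (5.72 to 7.48) in the Gcg class. Barcodes without a hormone had 41.6 CPM (34.7 to 49.4) and 36.0 CPM (32.4 to 40.0). Stromal-marker barcodes had 80.6 CPM (59.0 to 107) and 52.2 CPM (45.1 to 60.0), endothelial-marker barcodes 42.2 CPM (32.2 to 54.3) and 28.4 CPM (17.1 to 44.3), and the 63 B-cell-marker barcodes of the TBL/RβKO-labelled library 58.9 CPM (46.6 to 73.4). In the insulin class, 5.84% and 10.8% of barcodes had a Slc1a5 UMI at full depth, but 0.938% (0.619 to 1.36) and 0.972% (0.518 to 1.66) at 5000 UMIs. Thinned means of 0.0104 and 0.0105 UMIs a barcode are too few to decide whether the libraries differ. In hormone-free CPM the insulin class had 2.35 (2.03 to 2.70) and 2.56 (2.19 to 2.98), a log2 ratio of 0.12 (-0.18 to 0.43).

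Slc38a4 (ENSMUSG00000022464) lies at chr15:96892693-96958593 on the minus strand with 16 exons and overlaps Gm32840 on the other strand. Slc7a2 (ENSMUSG00000031596) lies at chr8:41315431-41375345 on the plus strand with 12 exons, and Slc7a8 (ENSMUSG00000022180) at chr14:54959630-55019649 on the minus strand with 11 exons. These carriers shared a pattern over the classes. Windows of the same kind as above are printed for the 2 of them that the table holds, Slc38a4 at the most upstream of its 3 listed starts (chr15:97055907-97056206, minus strand, GRCm38.p6) and Slc7a8 (chr14:54781837-54782136, minus strand, GRCm38.p6). They hold none of the 3 letter runs searched, so nothing is in capitals.

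Slc38a4: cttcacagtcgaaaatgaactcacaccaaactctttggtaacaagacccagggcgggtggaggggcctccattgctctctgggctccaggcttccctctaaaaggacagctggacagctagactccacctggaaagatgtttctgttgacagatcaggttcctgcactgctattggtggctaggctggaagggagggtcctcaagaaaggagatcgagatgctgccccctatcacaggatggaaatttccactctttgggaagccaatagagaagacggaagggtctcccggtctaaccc
Slc7a8: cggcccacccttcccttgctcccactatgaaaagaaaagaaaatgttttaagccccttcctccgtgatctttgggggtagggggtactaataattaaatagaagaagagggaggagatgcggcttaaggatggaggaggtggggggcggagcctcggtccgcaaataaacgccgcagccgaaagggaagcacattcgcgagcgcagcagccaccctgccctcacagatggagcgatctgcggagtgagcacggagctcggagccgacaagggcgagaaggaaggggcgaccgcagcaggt

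The Gcg class held the highest level of each of the 3 carriers, and there the libraries were level for Slc7a2 and Slc7a8 and close for Slc38a4. Slc7a2 stood at 815 CPM (805 to 826) and 816 CPM (806 to 825). Slc7a8 stood at 272 CPM (266 to 278) and 276 CPM (271 to 282). Slc38a4 had 196 CPM (191 to 201) and 228 CPM (223 to 233), a relative log2 ratio of 0.11 (0.06 to 0.16). Slc7a2 was detected in 99.6% and 99.4% of Gcg-class barcodes.

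The distance between the classes was wider in the TBL/RβKO-labelled library. The Gcg class exceeded the insulin class 7.17-fold (7.03 to 7.30) for Slc7a2 in the control and 10.9-fold (10.6 to 11.2) in the other library. For Slc38a4 these values were 3.37-fold (3.26 to 3.48) and 7.02-fold (6.74 to 7.31), and for Slc7a8 4.00-fold (3.89 to 4.11) and 6.23-fold (6.01 to 6.46). Of all Slc38a4 UMIs in kept barcodes, the insulin class held 64.0% in the control and 27.2% in the TBL/RβKO-labelled library, where it had fewer barcodes.

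In hormone-free CPM the insulin class had 125 (123 to 128) and 49.9 (48.2 to 51.7) of Slc38a4, 245 (241 to 248) and 115 (113 to 118) of Slc7a2, and 146 (143 to 149) and 68.1 (66.2 to 70.2) of Slc7a8. In single barcodes the shift covered most of the class: 86.0% (84.0 to 87.8), 82.0% (79.8 to 84.0) and 83.7% (81.6 to 85.6) of the barcodes of the TBL/RβKO-labelled library lay below the control median for Slc38a4, Slc7a2 and Slc7a8. With insulin as the only hormone Slc38a4 stood at 132 (129 to 134) and 63.9 (60.5 to 67.4), Slc7a2 at 234 (230 to 237) and 85.8 (81.9 to 89.9), and Slc7a8 at 146 (143 to 149) and 81.1 (77.2 to 85.1). The 3 carriers were therefore lower in barcodes without a second hormone too. By the same bound as above, free RNA could account for at most 22.8% and 46.5% of the insulin-class CPM of Slc38a4, 32.5% and 66.3% of that of Slc7a2, and 25.1% and 44.6% of that of Slc7a8, against 16.9% and 16.1% for Glul.

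Within the TBL/RβKO-labelled library, Slc38a4 was lower where insulin was lower, at 73.5 (70.0 to 77.2), 41.1 (38.9 to 43.4) and 30.3 (27.3 to 33.5) hormone-free CPM from the highest to the lowest insulin bin. Slc7a8 followed at 81.5 (77.7 to 85.3), 62.0 (59.3 to 64.8) and 59.9 (55.6 to 64.4). Slc7a2 ran the other way, at 101 (96.9 to 105), 117 (113 to 121) and 136 (130 to 143). In the same bins the β-cell factor Mafa stood at 330, 42.8 and 4.03 hormone-free CPM. Insulin-class barcodes with and without a Cre UMI had 54.3 (50.6 to 58.2) and 48.7 (46.8 to 50.6) of Slc38a4, and 112 (107 to 118) and 116 (113 to 119) of Slc7a2. Neither carrier was lower beyond these intervals in barcodes with a Cre UMI. Cre UMIs were found in 27.6%, 18.5% and 9.88% of barcodes from the highest to the lowest insulin bin. Median depths were 81403 UMIs with a Cre UMI and 64693 without. This split therefore goes along with insulin and depth, and barcodes without a Cre UMI need not lack Cre.

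Insulin-class barcodes of the TBL/RβKO-labelled library were also split into 4 groups of like size by their own Glul level, which stood at 194, 462, 787 and 1654 hormone-free CPM. Slc38a4 stood at 77.7 (73.1 to 82.5), 47.7 (44.6 to 51.0), 42.1 (39.1 to 45.1) and 37.4 (34.5 to 40.6) in these groups, and Slc7a2 at 132 (126 to 138), 129 (124 to 134), 110 (106 to 115) and 89.8 (85.2 to 94.7). Their median insulin shares were 30.5%, 24.9%, 21.8% and 20.1%. In the control, whose groups had 48.3, 123, 199 and 349 of Glul, Slc38a4 ran the other way, from 116 (112 to 122) to 138 (133 to 143), and the median insulin share was 47.2% to 51.9%. Barcodes with the most Glul thus had the least Slc38a4 in 1 library and the most in the other.

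In the other endocrine classes the carriers differed less. Slc7a2 had 127 CPM (121 to 134) and 102 CPM (97.9 to 107) in the Ppy class, and Slc7a8 59.1 CPM (54.7 to 63.8) and 47.5 CPM (44.6 to 50.6), relative log2 ratios of -0.58 (-0.68 to -0.48) and -0.57 (-0.72 to -0.43). In the Sst class their relative ratios were -0.51 (-0.69 to -0.33) and -0.59 (-0.81 to -0.36). Slc38a4 was low in both classes, with 19.0 CPM (16.5 to 21.8) and 23.6 CPM (21.6 to 25.8) in the Ppy class, and its relative ratios of 0.05 (-0.18 to 0.29) and 0.33 (-0.03 to 0.70) had intervals that span 0.

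Barcodes without a hormone went the other way. Slc38a4 had 9.67 CPM (6.52 to 13.8) and 42.2 CPM (38.2 to 46.4) and Slc7a2 47.4 CPM (40.0 to 55.7) and 197 CPM (189 to 206), and both were called higher, as were 12.0% of 10158 genes, while none of the 6 genes reaching 10 CPM was called lower and 7.86% of all were. The makeup of these barcodes differed between the libraries. In the TBL/RβKO-labelled library, 126 of 426 did not reach 3 markers of any non-endocrine list, against 5 of 104 in the control. Those 126 held 1743 of the 1969 Slc7a2 UMIs, at 986 CPM (940 to 1034), and had 210 CPM (189 to 232) of Slc38a4. Among macrophage-marker barcodes Slc7a8 stood at 138 CPM (115 to 164) and 137 CPM (115 to 162), with Slc38a4 near 1 CPM.

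Across the 10 sums of 5 classes in 2 libraries, log2 CPM of Slc7a2 and Slc7a8 had a Pearson r of 0.96, of Slc38a4 and Slc7a2 of 0.93, and of Slc38a5 and Slc7a8 of 0.82, while Glul had r between -0.32 and 0.15 with the other 6. These sums share libraries and free RNA, and r is given as a description. Of 11416 genes, those most like Glul were Rfk (riboflavin kinase, r = 0.99), Tacc2 (0.96) and Akr1c14 (0.95). Slc30a8, the zinc carrier of insulin granules (0.96), and Zfp516 (0.95) were among the 3 most like Slc38a4. Zfp651, Glrb and Adamts17 (0.98, 0.98 and 0.97) were most like Slc7a2, Rnf212b, Frrs1l and Nr4a2 (0.97 each) most like Slc7a8, and Vps11, Sumf1 and Nisch (0.98, 0.98 and 0.97) most like Slc38a5. Faap100, Whamm and Prr3 (0.97, 0.97 and 0.96) were most like Glud1, and Pik3cd, Pdlim7 and Traf2 (0.99 each) most like Slc1a5.

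Other genes of the same pathways were taken from 6 lists and read in the insulin class against the shares of all genes, 4.36% higher and 2.26% lower. Of 16 other amino acid carriers that reached 10 CPM, 2 were called higher and 0 lower, with a median relative log2 ratio of 0.10. They were Slc1a4, a neutral amino acid exchanger related to Slc1a5 (7.38 and 24.6 CPM, relative ratio of 1.43), and Slc7a11, which exchanges cystine for glutamate (4.52 and 14.3 CPM, 1.34). The lowest were Slc43a2 (102 and 89.0 CPM, -0.51) and Slc6a17 (14.8 and 13.9 CPM, -0.41), so that no other carrier stood as low as Slc38a4, Slc7a2 and Slc7a8.

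Among 16 other enzymes of glutamine and glutamate, 0 were called higher and 2 lower, with a median of -0.14. The lower ones were Gad1, which makes γ-aminobutyric acid from glutamate (36.3 CPM in the control, relative ratio of -1.79), and Aldh5a1, which acts later in that path (48.7 and 24.0 CPM, -1.34). The highest were the glutamine-using enzymes Asns (90.5 and 130 CPM, 0.21) and Ppat (64.3 and 90.1 CPM, 0.17). Glul thus stood apart from the other enzymes of its list.

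Of 9 enzymes of arginine and polyamines, 2 were called higher and 0 lower (median of -0.19). These were Odc1, ornithine decarboxylase (34.6 and 100 CPM, 1.22), and Arg1, arginase (19.5 and 54.2 CPM, 1.16), while Asl (-0.63) and Srm (-0.51) were lowest. Of 8 enzymes of serine, glycine and glutathione, 1 was called higher and 0 lower (median of 0.11). It was Gclc, the catalytic subunit of the enzyme that joins glutamate to cysteine (25.9 and 92.9 CPM, 1.53). Its partner Gclm stood at 0.82, and Phgdh (-0.97) and Psph (-0.67) of serine synthesis were lowest.

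Of 22 genes of amino acid sensing by mTORC1 none was called (median of -0.07), with Rragd (0.54) and Rptor (0.44) highest and Sesn3 (-0.67) and Mtor (-0.42) lowest. Of 16 genes of the amino acid response, 3 were called higher and 0 lower (median of 0.20). They were the stress gene Nupr1 (52.0 and 524 CPM, 3.02), the mTORC1 inhibitor Ddit4 (11.9 and 38.7 CPM, 1.39) and Slc7a11, which is also on the list of carriers. Phgdh and Atf5 (-0.46) were lowest. In the Gcg class, 1 of 80 other list genes that reached 10 CPM was called, Nupr1, higher, which is 1.25% against 0.712% of all genes.

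**Figure D5:**
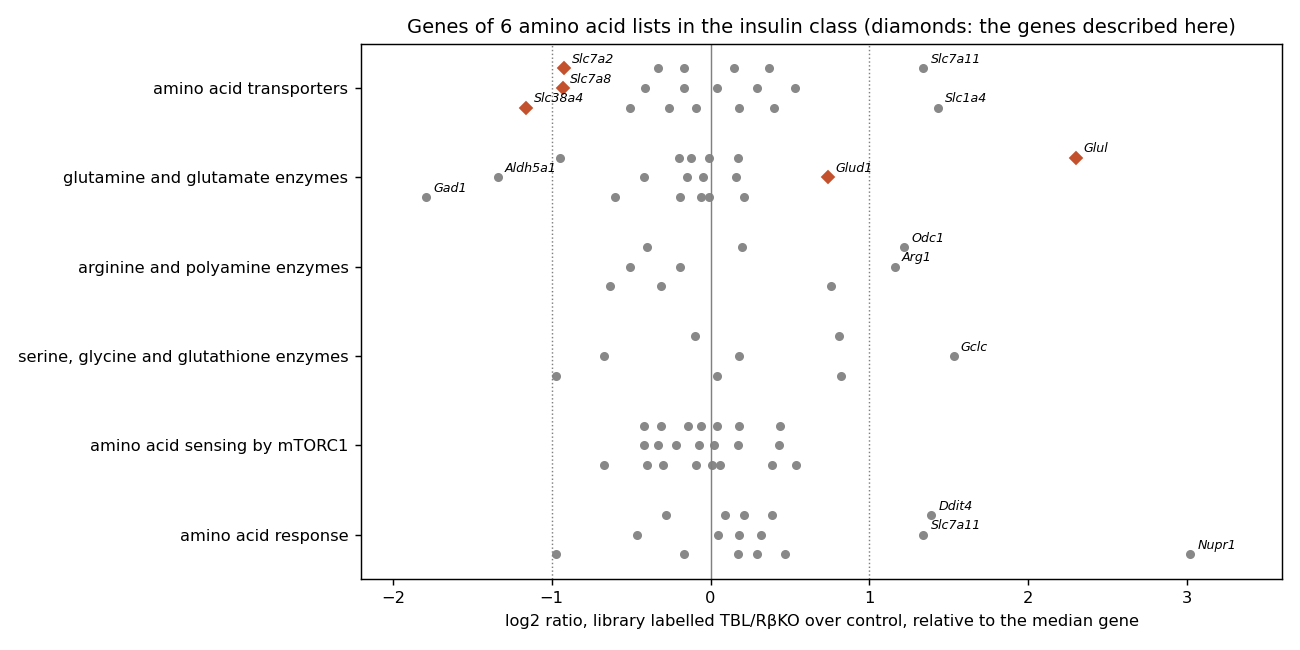
Relative log2 ratio in the insulin class for each gene of 6 amino acid lists that reached 10 CPM in at least 1 library. Diamonds are the genes described here, circles the other list genes, and names are given for the diamonds and for genes past the dotted limits of 1. Nupr1 (3.02) and Glul (2.30) lie farthest right and Gad1 (-1.79) farthest left, and Slc38a4, Slc7a2 and Slc7a8 are the 3 lowest carriers.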

How the data were processed

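Single-cell 3′ RNA libraries of pooled islets were analysed from the deposited UMI counts, raw whole numbers per gene and barcode. Per the submitters' processing notes, Cell Ranger 7.1.0 and build GRCm39 were used. No caller of doublets was run here, and free RNA was not taken off. The lists, their members and the comparisons were chosen with earlier results of these data known. Barcodes were kept with more than 2500 genes and under 10% mitochondrial UMIs, without the study's upper limit of 6000 genes, and classed by their largest hormone. UMIs were summed by library and class and scaled to CPM, with exact Poisson intervals for levels, exact conditional binomial intervals for ratios and Clopper-Pearson intervals for shares. With 1 library a group no test was run, and depth (median of 22509 and 19758 UMIs a barcode) limits only counting error. Ratios and calls were tested on simulated data. Genes were named by rule: the 7 genes in each class, the 3 genes with the highest Pearson r of log2(CPM + 1) for each, and the 2 highest and 2 lowest genes of each list. A single gene that this rule names is not reported here. Alternatives changed the scaling, barcodes, class limits, call limit and free RNA. Software was Python 3.11.15, numpy 2.4.6, scipy 1.17.1, pandas 2.3.3 and matplotlib 3.10.9.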

Additional observations from a re-analysis of the deposited data

Results flagged for a closer look

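Slc38a4 moved in opposite directions between the libraries in different hormone classes. Its log2 ratio of CPM, TBL/RβKO-labelled library over control, was -0.85 (-0.90 to -0.79) in the insulin class, 0.21 (0.17 to 0.26) in the Gcg class and 0.32 (0.08 to 0.55) in the Ppy class. Relative to the median gene these were -1.16, 0.11 and 0.05, the last with an interval that spans 0. With 1 library a group the difference between classes was not tested.

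Glul was also measured in barcodes outside the filter on genes and mitochondrial UMIs, which no comparison used. Among insulin-class barcodes set aside, 652 of the TBL/RβKO-labelled library had 421 CPM (399 to 445) and 2114 of the control had 34.9 CPM (31.2 to 38.9). Their median depths were 1500 and 3534 UMIs.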

How the results depend on the processing

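No paired analysis was possible because each group has 1 library, and for the same reason no replicate could be left out. In the insulin class the main calls were 1 of the 7 genes higher and 1 lower, and 345 and 179 of all genes. Without taking off the median gene, 2 of the 7 (Glul and Glud1) were higher and 0 lower, with 655 and 99 genes. At a log2 limit of 0.5, 2 (the same pair) were higher and 3 (Slc38a4, Slc7a2 and Slc7a8) lower, with 935 and 599 genes, and with a filter at 1 CPM 783 and 387 genes were called. Below 6000 genes and with 1 hormone, Slc7a2 was the gene called lower in place of Slc38a4. In the Gcg class the main counts were 0 of the 7 in either direction and 64 and 14 genes. Glul was called higher there (1) without the median taken off and at a limit of 0.5, the latter with 260 and 88 genes. The filter at 1 CPM gave 255 and 140 genes. Genes higher were 39 below 6000 genes and 42 at a hormone minimum of 500, and genes lower were 28 with 1 hormone, 9 without barcodes carrying non-endocrine markers and 6 when the ductal list was not used for that. At a limit of 0.5, 2 genes (Slc7a2 and Slc7a8) were lower in the Sst and in the Ppy class, and below 6000 genes 0 were higher in the Sst class. The cause of each change was not tested. Over 9 alternatives the relative log2 ratio in the insulin class ran from 2.19 to 2.42 for Glul, 0.65 to 0.86 for Glud1, -1.60 to -0.92 for Slc38a4, -1.83 to -0.87 for Slc7a2 and -1.28 to -0.73 for Slc7a8. For Glul it ran from 2.64 to 3.32 in the Ppy class, 0.80 to 1.64 in the Sst class and 0.36 to 0.99 in the Gcg class. Dropping barcodes under 1000 insulin UMIs per 10000 and the ductal list were added after seeing the data. Depth limits Slc1a5 and Slc38a5 outside the Gcg class, where counts are low.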

Other observations

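In the Ppy class 7 of 81 other list genes that reached 10 CPM were called higher (8.64%, against 4.63% of all genes) and 0 lower (1.18% of all genes). They were Slc1a4 (9.64 and 31.6 CPM), Slc7a11 (3.69 and 10.3 CPM), Slc36a1, a lysosomal amino acid carrier (10.6 and 27.7 CPM), Gclc (37.0 and 133 CPM), Rragd, a GTPase of amino acid sensing (19.9 and 47.8 CPM), Ddit4 (8.65 and 29.0 CPM) and Nupr1 (16.9 and 85.6 CPM). In the insulin class 7 of 80 were called higher (8.75%, against 4.36% of all genes), and Slc1a4, Slc7a11, Gclc, Ddit4 and Nupr1 were among those in both classes. Nupr1 was called higher in each endocrine class, with 2.54 and 14.9 CPM in the Gcg class where it was the 1 of 80 called (0.712% of all genes higher), and 18.8 and 42.4 CPM in the Sst class, where 2 of 86 were called higher (0.898% of all genes). Gad1, called lower in the insulin class, stayed below 10 CPM in the other hormone classes and was not called there, with relative log2 ratios of -1.23 (Gcg), -1.16 (Sst) and -1.48 (Ppy).

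Among insulin-class barcodes outside the filter, Slc7a2 stood at 342 CPM (330 to 354) in the control and 108 CPM (96.3 to 120) in the TBL/RβKO-labelled library, and Slc7a8 at 161 CPM (153 to 169) and 60.4 CPM (52.0 to 69.8). Slc38a4 stood at 81.6 CPM (75.9 to 87.7) and 44.6 CPM (37.4 to 52.8). In Ppy-class barcodes outside the filter, Glul had 2 UMIs in 14 control barcodes and 463 UMIs in 67 of the TBL/RβKO-labelled library.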
